A study of Homo sapiens with 4 samples.

Results

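The collagen genes of OVCA420 cells, an epithelial ovarian cancer cell line, were examined over a time course of TGF-β1. They were all genes whose symbol is COL, a number, A and a number, apart from *COL17A1*, which gave 43 of the 33694 genes in the gene lists. Of these, 25 had more than 3 unique molecular identifiers (UMIs, each counting 1 captured RNA molecule) in at least 1 library, and the other 18 are listed here as not expressed. Their summed level was 104 CPM (UMIs scaled to the total of the library) in untreated cells, 622 after 1 day, 508 after 3 days and 307 after 7 days. *COL1A1*, *COL4A1*, *COL4A2* and *COL27A1* made up most of the difference from untreated cells after 1 and 3 days, and *COL4A1* and *COL4A2* most of it after 7 days. *COL12A1* was highest at 7 days, and *COL9A3* was nearly absent from 3 days on.

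Cells were untreated (Ctrl) or received 10 ng/mL TGF-β1 for 1, 3 or 7 days (1-day, 3-day and 7-day), with no other agent or genetic change named in the labels. Treatments were started at different times so that every culture was collected at the same time, in medium with 10% serum, and cells were passaged when needed. Each of the 4 conditions has 1 droplet-based 3′ scRNA-seq library, so the values have no replicate check, no test between time points was made, and every interval covers counting error only. The 1-day, 3-day and 7-day comparisons with Ctrl share the same Ctrl library.

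The cells read held 29995994 UMIs in Ctrl (933 cells), 32949874 at 1-day (937), 32139723 at 3-day (705) and 25382817 at 7-day (569). The barcodes read, before cells were filtered, were 23.0% to 36.3% of those listed, so these sums are not the full depth of a library. The median was 30270 to 43553 UMIs per cell, and libraries shared 1 to 7 cell barcodes pairwise. The 9 epithelial markers summed to 4119, 5649, 4510.2 and 4134 CPM from Ctrl to 7-day, with *EPCAM* between 297 and 361 CPM. They differed in course, since *KRT7* was at 346, 942, 1080.0 and 881 CPM, *KRT19* at 1178, 989.5, 519 and 581 and *ELF3* at 269, 48.0, 28.7 and 52.8. *MUC16* went from 2.97 CPM in Ctrl to 0.425, 0.124 and 0.197 in the treated libraries, and *PAX8* (0.124 to 0.333 CPM) was low throughout. The fibroblast markers summed to 19.9, 43.8, 44.0 and 32.5 CPM from Ctrl to 7-day, nearly all of it *FBLN1* at 18.4, 42.7, 42.9 and 32.2 CPM. *LUM*, also on this list, had fewer UMIs in each later library, with 33, 20, 16 and 2 from Ctrl to 7-day. Of its 33 Ctrl UMIs, 14 came from 1 cell. *PDGFRA*, *PDGFRB*, *THY1*, *FAP*, *POSTN*, *DCN* and *C7* each stayed at or under 0.303 CPM in every library. Among endothelial, leukocyte and smooth muscle markers, *CDH5* went from 5.37 CPM in Ctrl to between 0.218 and 0.395, *CD68* from 1.53 to 6.19 at 7-day and *ACTA2* from 0.233 to 1.02. The rest of these lists did not follow them. *MYH11* lay between 0.436 and 0.567 CPM, and *PECAM1*, *CLDN5*, *VWF*, *KDR*, *PTPRC*, *CD3E*, *CD14*, *MS4A1*, *DES* and *CNN1* each stayed at or under 0.187 CPM in every library. The part of these markers in the results was not tested. Cells called G1 were 17.8%, 77.3%, 43.0% and 33.0% from Ctrl to 7-day, so ratios to Ctrl within G1 cells are given beside the members where they left the counting interval of all cells or fell short of 2-fold.

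Collagens are extracellular proteins of 3 chains wound into a triple helix, and each gene encodes 1 chain. Fibrillar collagens form the fibrils of connective tissue, type IV collagens form the network of basement membranes on which epithelial cells rest, and the fibril-associated collagens (FACIT) bind to the surface of fibrils. TGF-β1 is a cytokine known for raising the synthesis of extracellular matrix in many cell types and for inducing epithelial-mesenchymal transition (EMT).

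The type IV genes lie head to head in pairs, each pair sharing 1 stretch of DNA between divergent start sites. By RefSeq's GRCh38.p14 start sites, *COL4A1* (minus strand) and *COL4A2* (plus strand) start 127 bases apart on chromosome 13, *COL4A4* and *COL4A3* 419 bases apart on chromosome 2, and *COL4A6* and *COL4A5* 380 bases apart on chromosome X. A further *COL4A6* start lies 1416 bases from that of *COL4A5*. The plus-strand sequences ahead of *COL4A2*, *COL4A3* and *COL4A5* are printed because both genes of each pair were measured. Those of *COL27A1*, highest at 1-day, and *COL12A1*, highest at 7-day, stand beside them as members with opposite timing. Capitals mark 3 short motifs on either strand, namely GGGCGG (the GC box bound by Sp1), CCAAT (the CCAAT box bound by NF-Y) and CAGAC (a half-site bound by SMAD proteins).

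The bases between the starts of *COL4A1* and *COL4A2*, chr13:110307158-110307283, plus strand, and the 250 bases ahead of the starts of *COL4A3* (chr2:227164374-227164623, plus strand), *COL4A5* (chrX:108439588-108439837, plus strand), *COL27A1* (chr9:114155287-114155536, plus strand) and *COL12A1* (chr6:75206054-75206303, minus strand) read 5′ to 3′:
COL4A1 to COL4A2: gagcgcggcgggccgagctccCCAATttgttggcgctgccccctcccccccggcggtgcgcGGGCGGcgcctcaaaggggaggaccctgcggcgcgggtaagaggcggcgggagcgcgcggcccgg
COL4A3: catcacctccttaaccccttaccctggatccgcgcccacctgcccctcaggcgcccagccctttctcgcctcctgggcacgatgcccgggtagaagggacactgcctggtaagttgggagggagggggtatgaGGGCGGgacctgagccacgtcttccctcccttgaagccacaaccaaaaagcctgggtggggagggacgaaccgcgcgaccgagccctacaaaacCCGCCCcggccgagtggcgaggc
COL4A5: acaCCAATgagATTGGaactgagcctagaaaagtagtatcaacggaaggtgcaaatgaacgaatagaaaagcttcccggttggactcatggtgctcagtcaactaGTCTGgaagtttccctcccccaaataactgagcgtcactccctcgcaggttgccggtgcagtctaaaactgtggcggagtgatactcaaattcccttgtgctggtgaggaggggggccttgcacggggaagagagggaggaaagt
COL27A1: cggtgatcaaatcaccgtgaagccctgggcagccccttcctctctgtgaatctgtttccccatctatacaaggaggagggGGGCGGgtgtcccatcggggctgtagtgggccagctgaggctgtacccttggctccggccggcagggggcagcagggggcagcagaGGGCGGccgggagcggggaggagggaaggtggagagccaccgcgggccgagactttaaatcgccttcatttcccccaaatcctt
COL12A1: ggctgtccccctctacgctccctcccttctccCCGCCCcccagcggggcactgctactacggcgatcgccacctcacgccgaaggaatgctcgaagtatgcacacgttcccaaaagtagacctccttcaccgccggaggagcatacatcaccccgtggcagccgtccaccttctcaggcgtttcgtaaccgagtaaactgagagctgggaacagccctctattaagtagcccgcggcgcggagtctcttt

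The stretch between *COL4A1* and *COL4A2* holds a CCAAT box and a GC box, 105 and 65 bases ahead of the *COL4A2* start. The *COL4A3* sequence holds 2 GC boxes and the *COL4A5* sequence 2 CCAAT boxes and 1 CAGAC. Of the 43 members, 31 had a promoter in the RefSeq table, among them 13 of the 16 members compared between libraries below. Of the 16, *COL1A1*, *COL5A2* and *COL9A3* had none, so the motif counts leave them out. In the 250 bases ahead of the start, GGGCGG was found on either strand at 1 or more starts for 11 of these 13, CAGAC for 7 and CCAAT for 6. Counted in the same way, the shares of all 27305 genes in the table were 46.2%, 42.8% and 37.0%. Some genes have several starts, and by promoter the 3 motifs were found in 13, 9 and 6 of the 18 promoters of these members and in 42.6%, 38.0% and 32.0% of all 35116. The share of G and C bases in these 18 ran from 44.0% (*COL4A6*) to 88.4% (*COL18A1*). Most lay above the median of all promoters, 58.0%, and the part of base content in the motif counts was not tested. CACCTG, the E-box bound by SNAI proteins, was found for 3 of the 13 members and 20.6% of all genes, TATAAA for 2 and 13.0%, and TGANTCA, the AP-1 site, for none and 8.06%. These are matches of letters and not measured binding sites. The 250 bases taken for the 2 genes of a type IV pair overlap in part, and a site in the shared bases was counted for both genes. The counts of members are thus not independent of each other.

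Members with at least 50 UMIs over the 4 libraries were compared, together with all other genes at that depth, which gave 16 members among 14182 genes. A gene counts as higher or lower when its CPM differed at least 2-fold. At 1-day against Ctrl, 9 of the 16 members were higher, where 11.0% of all genes were, and 0 were lower, where 11.7% of all genes were. At 3-day, 8 were higher (11.8% of all genes) and 1, *COL9A3*, was lower (10.3%). At 7-day, 9 were higher (13.8%) and again *COL9A3* alone was lower (9.47%). Of the members counted as higher, *COL4A3* and *COL11A1* reached 50 UMIs only with the library where each was highest. Their calls are thus not independent of that minimum. The median log2 ratio to Ctrl of the 16 members was 1.24, 0.99 and 1.08 at 1, 3 and 7 days, and that of all genes -0.07, -0.01 and 0.07.

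The later steps ran the other way for most of the abundant members. From 1-day to 3-day, 6 members were lower (5.82% of all genes), namely *COL1A1*, *COL4A3*, *COL4A4*, *COL7A1*, *COL9A3* and *COL16A1*, and 1, *COL12A1*, was higher (6.38%). Of these, *COL4A3* reached the minimum of UMIs only with the 1-day library. Its call as lower in this step is thus not independent of that minimum. From 3-day to 7-day, 3 were lower (2.31% of all genes), namely *COL1A1*, *COL27A1* and *COL4A3*, and 0 were higher (3.83%). *COL4A3*, compared only through its 1-day UMIs, had 20 and 7 UMIs in these libraries. The interval of its log2 ratio of -1.17 held 0 (-2.66 to 0.13). The median log2 ratio of the members was -0.48 and -0.44 in these steps and 0.08 over all genes in both.

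The library of highest level sorted the members by timing. A member was assigned to a library when its 95% Poisson interval there lay above that of the next library. The 1-day library held 7 such members (8.38% of all genes), namely *COL1A1*, *COL27A1*, *COL4A3*, *COL4A4*, *COL7A1*, *COL9A3* and *COL18A1*. Without this library *COL4A3* would have fallen short of the minimum of UMIs for comparison. Its place among these members is thus not independent of that minimum. The 3-day library held 1, *COL4A2* (2.76%), the 7-day library held 2, *COL12A1* and *COL4A6* (12.3%), and Ctrl held 0 (16.0%). The intervals of the other 6 overlapped those of the next library (*COL4A1*, *COL4A5*, *COL5A2*, *COL11A1*, *COL11A2* and *COL16A1*).

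**Figure D1:**
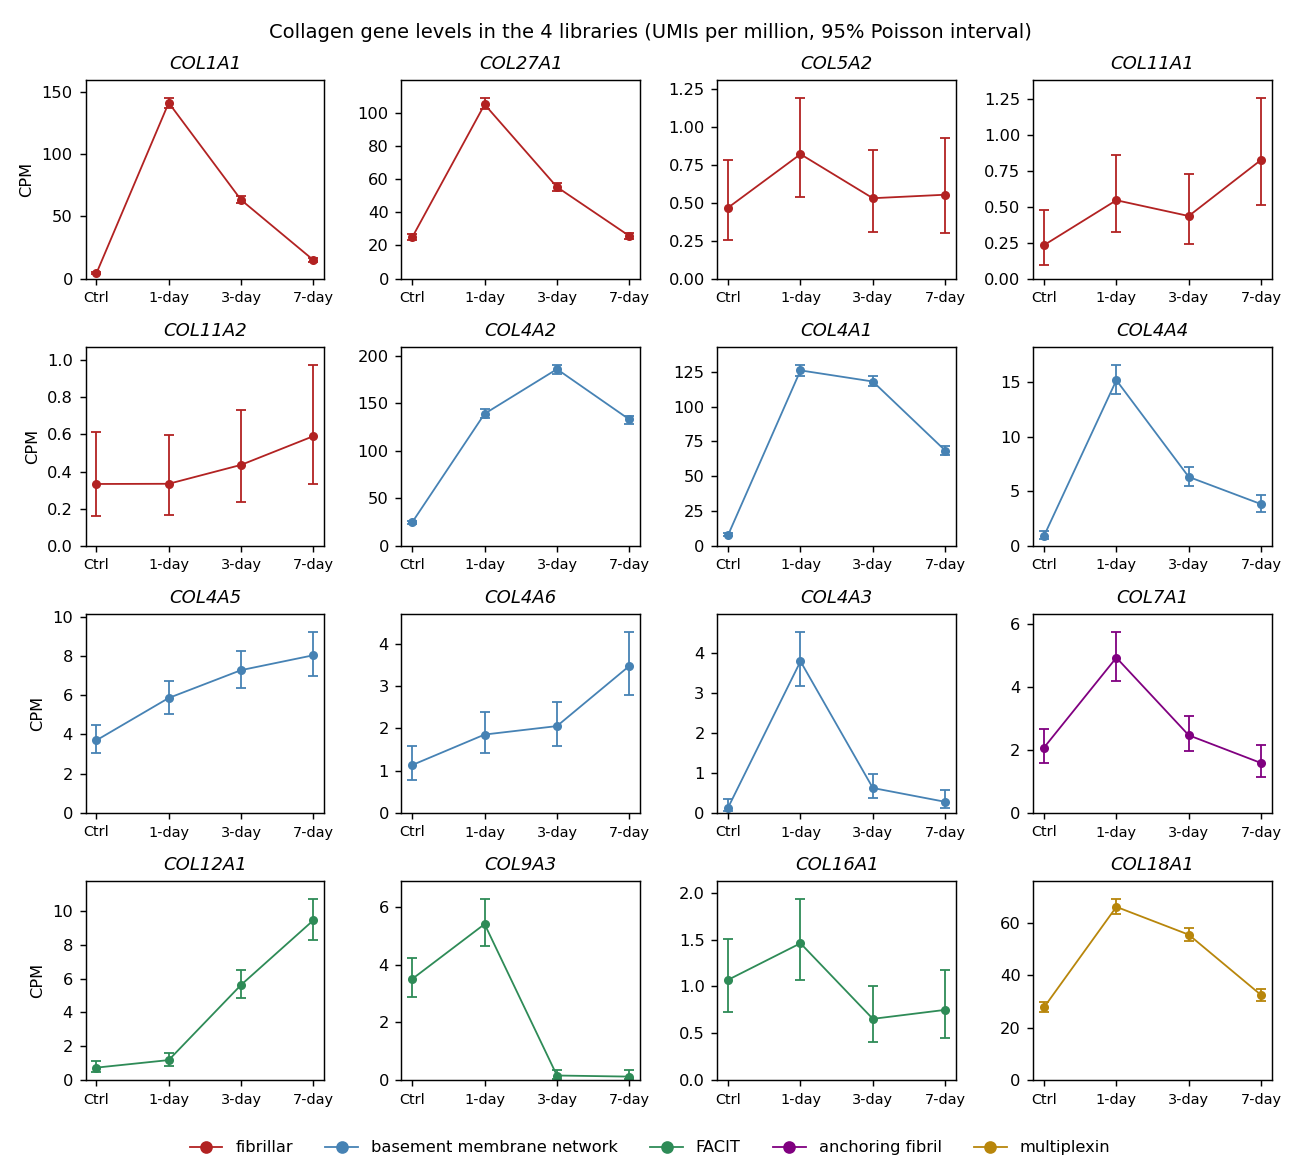
Level of the 16 compared collagen genes (CPM, vertical axis from 0, with its own scale in each panel) in Ctrl, 1-day, 3-day and 7-day, coloured by structural class, with bars for exact Poisson 95% intervals. *COL1A1* and *COL27A1* peak at 1-day with 141 and 105 CPM, *COL12A1* climbs to 9.46 CPM at 7-day, and *COL9A3* lies near 0 at 3-day and 7-day.

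**Figure D2:**
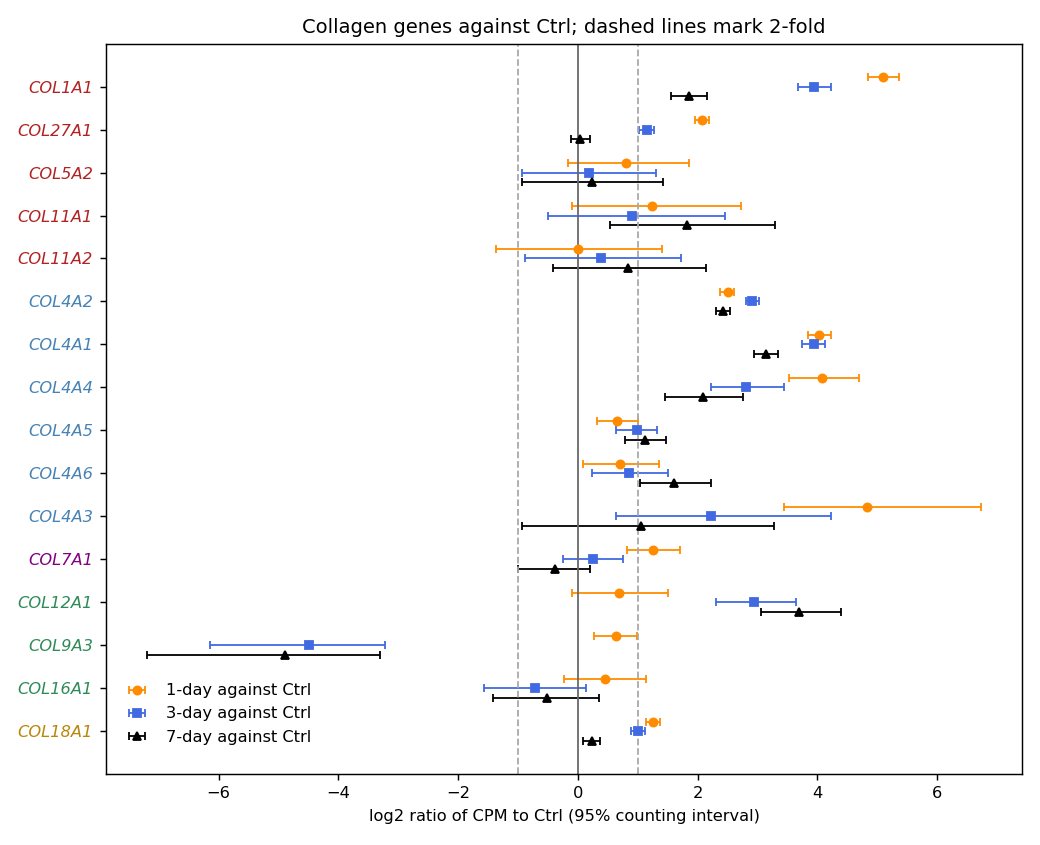
log2 ratio of CPM to Ctrl (horizontal axis) for the same 16 genes at 1-day (circles), 3-day (squares) and 7-day (triangles), with 95% counting intervals and dashed lines at 2-fold. *COL1A1* lies farthest to the right at 5.10 at 1-day and *COL9A3* farthest to the left at -4.89 at 7-day.

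Among the 11 fibrillar genes, 6 were expressed. *COL1A1*, the alpha 1 chain of type I collagen and the main collagen of bone, skin and tendon (chr17:50184101-50201632, minus strand, GENCODE release 44), was at 4.10 CPM in Ctrl (3.41 to 4.89), 141 at 1-day (137 to 145), 63.1 at 3-day (60.4 to 65.9) and 14.8 at 7-day (13.4 to 16.4). It was thus highest at 1-day and lower in each later library, and no 2 of its intervals overlapped. Its log2 ratio to Ctrl was 5.10 at 1-day (4.85 to 5.37), 3.94 at 3-day (3.68 to 4.22) and 1.85 at 7-day (1.56 to 2.16). Within G1 cells these ratios were 4.36, 3.33 and 1.20, and *COL1A1* in Ctrl was at 6.75 CPM in G1 cells against 3.51 in S and 3.67 in G2M cells. The part of cell cycle in the result was not tested. When the cells of each library were split in barcode order into 2 equal parts, the 7-day ratio was 2.44 in the first part and 1.16 in the second.

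*COL1A2*, the alpha 2 chain that normally joins *COL1A1* products in type I collagen, had 0 UMIs in Ctrl, 1 at 1-day and 0 in both later libraries, while *COL1A1* had 123, 4646, 2028 and 376. Where *COL1A2* had 0 UMIs, the upper end of its Poisson interval was 0.123 CPM in Ctrl, 0.115 at 3-day and 0.145 at 7-day. *COL3A1*, the type III chain found with type I in soft tissues, had no UMI in any library.

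*COL27A1*, a fibrillar collagen known from cartilage (chr9:114155537-114312511, plus strand), was at 24.9 CPM in Ctrl (23.2 to 26.8), 105 at 1-day (102 to 109), 55.2 at 3-day (52.7 to 57.9) and 25.7 at 7-day (23.8 to 27.7). It was back at the Ctrl level at 7-day within counting error, with a log2 ratio of 0.04 (-0.11 to 0.20), after 2.08 (1.96 to 2.19) at 1-day and 1.15 (1.02 to 1.27) at 3-day. The 7-day ratio within G1 cells was 0.28. The ratio of *COL1A1* to *COL27A1* UMIs was 0.164, 1.34, 1.14 and 0.577 from Ctrl to 7-day. With 3′ counting each molecule counts once whatever its length, but capture can differ between genes, so the ratio is read across libraries and not as a ratio of molecules.

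The other expressed fibrillar chains were rare. *COL5A2*, a chain of type V collagen that regulates fibril diameter, had 14, 27, 17 and 14 UMIs from Ctrl to 7-day (0.467, 0.819, 0.529 and 0.552 CPM), and its intervals overlapped throughout. Within G1 cells Ctrl had a single *COL5A2* UMI, and the log2 ratios to Ctrl there, 1.90, 1.76 and 1.57, had intervals that spanned 0. *COL11A1* and *COL11A2*, chains of the cartilage collagen type XI, had 7, 18, 14 and 21 UMIs (0.233, 0.546, 0.436 and 0.827 CPM) and 10, 11, 14 and 15 UMIs (0.333, 0.334, 0.436 and 0.591 CPM). *COL11A1* counted as higher at 1-day and 7-day, with log2 ratios of 1.23 (-0.10 to 2.73) and 1.83 (0.54 to 3.30), so only the second interval lay above 0. Neither passed 2-fold within G1 cells, where Ctrl had 2 UMIs and the ratios were 0.56 (-1.54 to 3.73) and 0.83 (-1.65 to 4.17). In the first and second of 2 equal parts of the cells the 7-day ratio was 3.18 and 0.47. The G1 ratios of *COL11A2*, from 3 UMIs in Ctrl, were -1.12 (-3.25 to 1.46), -0.99 (-3.56 to 1.78) and -0.02 (-2.38 to 2.67). *COL5A3* had 9, 6, 4 and 2 UMIs.

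All 6 type IV chains were expressed. *COL4A1* and *COL4A2* encode the chains of the most widespread basement membrane network. *COL4A1* (chr13:110148963-110307157, minus strand) was at 7.73 CPM in Ctrl (6.77 to 8.80), 126 at 1-day (122 to 129.9), 118 at 3-day (115 to 122) and 68.4 at 7-day (65.3 to 71.7). Its 1-day and 3-day intervals met at their ends, and the log2 ratio of 3-day to 1-day of -0.09 (-0.15 to -0.03) turned to 0.18 within G1 cells. The log2 ratios to Ctrl were 4.03 (3.84 to 4.22), 3.94 (3.75 to 4.13) and 3.15 (2.95 to 3.35). Within G1 cells they were 4.38, 4.56 and 3.84.

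*COL4A2* (chr13:110305812-110513209, plus strand) was at 24.7 CPM in Ctrl (23.0 to 26.5), 139 at 1-day (135 to 144), 186 at 3-day (181 to 190.4) and 133 at 7-day (128 to 137). It was the most abundant member over the 4 libraries and the only one with its highest level apart at 3-day. Its log2 ratios to Ctrl were 2.50 (2.38 to 2.61), 2.91 (2.80 to 3.02) and 2.43 (2.31 to 2.54), and within G1 cells 2.59, 3.08 and 2.57. *COL4A2* was 23.7% of all collagen UMIs, 22.4%, 36.6% and 43.3% from Ctrl to 7-day. The GENCODE spans of *COL4A1* and *COL4A2* overlap at their 5′ ends on opposite strands, and whether the counting used strand is not given in the sources used here.

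The 2 genes of the pair did not keep a fixed proportion. The ratio of *COL4A1* to *COL4A2* UMIs was 0.313 in Ctrl (0.269 to 0.363), 0.904 at 1-day (0.866 to 0.943), 0.638 at 3-day (0.613 to 0.665) and 0.515 at 7-day (0.486 to 0.546). Each interval lay apart from the other 3.

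*COL4A3* and *COL4A4* encode chains that join those of *COL4A5* in the network of kidney and lung basement membranes. *COL4A4* (chr2:227002714-227164453, minus strand) was at 0.900 CPM in Ctrl (0.593 to 1.31), 15.2 at 1-day (13.9 to 16.6), 6.32 at 3-day (5.48 to 7.25) and 3.82 at 7-day (3.10 to 4.66). Its log2 ratios to Ctrl were 4.08 (3.52 to 4.69), 2.81 (2.23 to 3.45) and 2.09 (1.46 to 2.76), and within G1 cells 3.96, 2.82 and 2.05. *COL4A3* (chr2:227164624-227314792, plus strand) was at 0.133 CPM in Ctrl (0.0363 to 0.341), 3.79 at 1-day (3.16 to 4.52), 0.622 at 3-day (0.380 to 0.961) and 0.276 at 7-day (0.111 to 0.568). Both were highest at 1-day, and *COL4A3* had 4, 125, 20 and 7 UMIs, so its log2 ratios of 4.83 (3.44 to 6.73), 2.22 (0.64 to 4.23) and 1.05 (-0.93 to 3.27) are wide. Within G1 cells, where Ctrl had 3 UMIs, they were 2.76 (1.17 to 5.06), 0.47 (-1.45 to 2.95) and -0.34, so only the first passed 2-fold. The ratio of *COL4A3* to *COL4A4* UMIs was 0.148 (0.0377 to 0.425), 0.250 (0.204 to 0.305), 0.0985 (0.0589 to 0.156) and 0.0722 (0.0283 to 0.154) from Ctrl to 7-day.

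*COL4A5* and *COL4A6*, whose chains form a further type IV network in some epithelia, had another course. *COL4A5* (chrX:108439838-108697545, plus strand) was at 3.70 CPM in Ctrl (3.04 to 4.46), 5.86 at 1-day (5.06 to 6.74), 7.28 at 3-day (6.38 to 8.28) and 8.04 at 7-day (6.97 to 9.22). *COL4A6* (chrX:108155607-108439497, minus strand) was at 1.13 CPM (0.785 to 1.58), 1.85 (1.42 to 2.38), 2.05 (1.59 to 2.61) and 3.47 (2.78 to 4.27). Both had a higher value in each later library than in the one before. Of the 3 steps, only that from Ctrl to 1-day had intervals apart for *COL4A5*, and only that from 3-day to 7-day for *COL4A6*. The log2 ratios of 7-day to Ctrl were 1.12 (0.78 to 1.47) and 1.61 (1.03 to 2.23), and within G1 cells 1.60 (0.88 to 2.39) and 2.05. The 3-day ratio of *COL4A5* was 0.98, or 1.34 within G1 cells. Here the ratio of *COL4A5* to *COL4A6* UMIs was 3.26 (2.21 to 4.95), 3.16 (2.36 to 4.29), 3.55 (2.69 to 4.73) and 2.32 (1.80 to 3.01), with overlapping intervals.

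**Figure D3:**
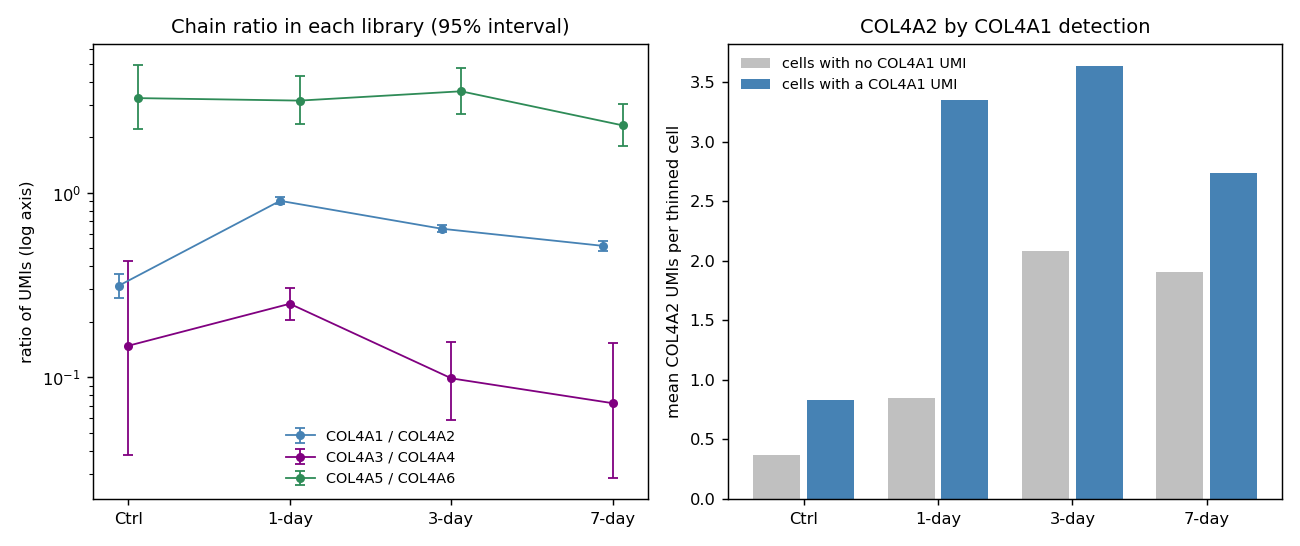
Left, ratio of UMIs of the paired type IV genes (log axis) in each library with 95% intervals. Right, mean *COL4A2* UMIs per cell after thinning to 18000 UMIs, in cells without (grey) and with (blue) a *COL4A1* UMI. The *COL4A1* to *COL4A2* ratio is 0.313 in Ctrl and 0.904 at 1-day, and the right-hand bars lie farthest apart at 1-day, at 0.844 and 3.35.

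*COL7A1*, the anchoring fibril chain that ties basement membrane to the stroma beneath (chr3:48564073-48595329, minus strand), was at 2.07 CPM in Ctrl (1.58 to 2.65), 4.92 at 1-day (4.19 to 5.73), 2.46 at 3-day (1.95 to 3.06) and 1.58 at 7-day (1.13 to 2.15). It stood apart at 1-day, and its log2 ratio there was 1.25 (0.82 to 1.70), or 0.57 within G1 cells. At 3-day and 7-day its intervals overlapped that of Ctrl, and the 3-day level was 2.00-fold lower than that at 1-day (log2 ratio between -1.41 and -0.60), with a log2 ratio of -0.27 within G1 cells. The 7-day ratio to Ctrl was -0.39, or -1.08 (-2.30 to 0.12) within G1 cells.

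*COL18A1*, a multiplexin of epithelial and vascular basement membranes whose cleavage releases endostatin (chr21:45405165-45513720, plus strand), was at 27.7 CPM in Ctrl (25.8 to 29.6), 66.0 at 1-day (63.3 to 68.9), 55.4 at 3-day (52.8 to 58.0) and 32.4 at 7-day (30.2 to 34.7). It had the highest level in Ctrl, at 26.5% of the collagen UMIs, although its interval overlapped those of *COL27A1* and *COL4A2*, and it held 10.6% to 10.9% in the treated libraries. Its log2 ratios to Ctrl were 1.25 (1.14 to 1.37), 1.00 (0.88 to 1.12) and 0.23 (0.09 to 0.37), so the 3-day value sat at the 2-fold mark, and within G1 cells they were 1.41, 1.17 and 0.35. *SLC19A1*, which overlaps it on the other strand, was at 10.4, 3.31, 7.81 and 10.7 CPM, lowest where *COL18A1* was highest. *COL15A1*, the other multiplexin, had 0 UMIs in Ctrl and at 1-day, 10 at 3-day and 15 at 7-day. With Ctrl set to 3 counts, the 2 later levels were 3.11-fold and 5.91-fold higher, and the log2 intervals began at 1.06 and 2.08.

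Of the 10 FACIT genes, 5 were expressed, and the 3 with enough UMIs to compare each had another course. *COL12A1*, which coats type I fibrils (chr6:75084326-75206267, minus strand), was at 0.733 CPM in Ctrl (0.460 to 1.11), 1.18 at 1-day (0.842 to 1.62), 5.63 at 3-day (4.84 to 6.51) and 9.46 at 7-day (8.30 to 10.7). Its 1-day and Ctrl intervals overlapped, and both later libraries lay above them. The log2 ratios to Ctrl were 0.69 (-0.10 to 1.51), 2.94 (2.30 to 3.65) and 3.69 (3.06 to 4.39). Of its 22 Ctrl UMIs, 7 came from 1 cell, and without the 10 cells of most collagen UMIs in each library the 3-day and 7-day ratios were 3.68 and 4.41. Within G1 cells, where Ctrl had 8 UMIs, the 3 ratios were -0.54 (-1.71 to 0.81), 1.55 (0.48 to 2.82) and 2.53 (1.48 to 3.79).

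*COL9A3*, a chain of the cartilage collagen type IX (chr20:62816244-62841159, plus strand), was at 3.50 CPM in Ctrl (2.86 to 4.24), 5.40 at 1-day (4.64 to 6.26), 0.156 at 3-day (0.0505 to 0.363) and 0.118 at 7-day (0.0244 to 0.345). It thus had 105 and 178 UMIs in the first 2 libraries and 5 and 3 in the last 2. The log2 ratios to Ctrl were 0.63 (0.27 to 0.99), -4.49 (-6.14 to -3.22) and -4.89 (-7.19 to -3.30), and within G1 cells the first 2 were 0.67 and -3.91, while at 7-day no G1 cell had a *COL9A3* UMI, against 17 UMIs in Ctrl. *TCFL5*, which overlaps *COL9A3* on the other strand, was at 10.1, 8.01, 7.81 and 7.37 CPM and so was not nearly absent in any library. Of the other type IX chains, *COL9A1* had no UMI and *COL9A2* had 1, 3, 4 and 11.

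*COL16A1*, a FACIT found in skin, was at 1.07, 1.46, 0.653 and 0.749 CPM (32, 48, 21 and 19 UMIs). Its 1-day interval, 1.07 to 1.93, lay above the 3-day interval, 0.404 to 0.999, and overlapped the others. Within G1 cells the log2 ratio to Ctrl was -0.84 (-1.83 to 0.24) at 1-day, where it was 0.45 in all cells, -1.41 (-2.69 to -0.13) at 3-day and -2.34 (-4.43 to -0.62) at 7-day, from 12, 34, 12 and 4 UMIs. *COL20A1* had 0, 26, 10 and 2 UMIs, 7.89-fold higher at 1-day than Ctrl set to 3 counts (log2 interval from 2.58), with 25 cells contributing.

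The remaining classes were rare. Of the type VI chains, which form beaded filaments around cells, *COL6A1* had 0, 4, 22 and 8 UMIs and *COL6A3* had 6, 7, 15 and 10. At 3-day, 8 of the 22 *COL6A1* UMIs came from 1 cell. *COL6A2*, the partner that type VI collagen requires beside these chains, had 0, 0, 2 and 1. *COL8A1*, a short-chain network collagen, had 3, 11, 12 and 18 UMIs and was 7.09-fold higher at 7-day than in Ctrl (log2 ratio 2.83, 1.05 to 5.23). *COL13A1*, a transmembrane collagen, had 1, 7, 10 and 5, and *COL28A1* had 3, 8, 8 and 7.

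The 18 genes listed as not expressed had at most 3 UMIs in every library. They were the fibrillar *COL1A2*, *COL2A1*, *COL3A1*, *COL5A1* and *COL24A1*, the beaded filament *COL6A2*, *COL6A5* and *COL6A6*, the network *COL8A2* and *COL10A1*, the FACIT *COL9A1*, *COL14A1*, *COL19A1*, *COL21A1* and *COL22A1*, the transmembrane *COL23A1* and *COL25A1*, and *COL26A1*. Of these, *COL3A1*, *COL9A1*, *COL10A1*, *COL23A1* and *COL25A1* had no UMI at all. Members with more than 3 UMIs numbered 18, 23, 25 and 22 from Ctrl to 7-day, and 16 passed in every library. At these depths 3 UMIs correspond to 0.0910 to 0.118 CPM. The list follows a rule on counts, and its other genes were detected at or under that level. The counts are those of the part of each library that was read, 23.0% to 36.3% of the barcodes listed, and a gene near the limit could pass it with more cells.

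The summed level differed through many cells and not a few. A collagen UMI was found in 86.3% of the Ctrl cells, in all 937 of the 1-day cells, and in 99.7% and 99.1% of the cells at the 2 later times. After each cell was thinned to 18000 UMIs the shares were 76.7%, 99.6%, 99.7% and 98.0%, which leaves out 89, 37, 28 and 20 shallower cells. The median thinned cell held 1 collagen UMI, 10, 8 and 5 from Ctrl to 7-day, from a median of 1, 4, 4 and 3 different collagen genes. The 10 cells with the most collagen UMIs held 4.10% to 6.75% of those of their library. The libraries hold no cell type that should lack collagen RNA, so the share that free RNA in the droplets gives could not be measured.

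By gene, the share of thinned cells with a UMI of *COL1A1* was 6.52%, 81.3%, 52.6% and 19.9% from Ctrl to 7-day (unthinned 11.1%, 92.6%, 74.8% and 39.5%). *COL4A1* was found in 11.0%, 65.0%, 76.4% and 62.7% (unthinned 17.0%, 75.2%, 90.5% and 83.8%), and *COL4A2* in 31.2%, 75.7%, 91.1% and 87.6% (unthinned 42.9%, 84.4%, 98.0% and 97.5%). At 1-day *COL1A1* was thus found in more cells than *COL4A1*, and at 3-day and 7-day in fewer. *COL12A1* went from 1.07% and 1.67% in Ctrl and 1-day to 9.60% and 13.5% at 3-day and 7-day (unthinned 14 of 933 cells, 3.63%, 20.1% and 29.3%).

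**Figure D4:**
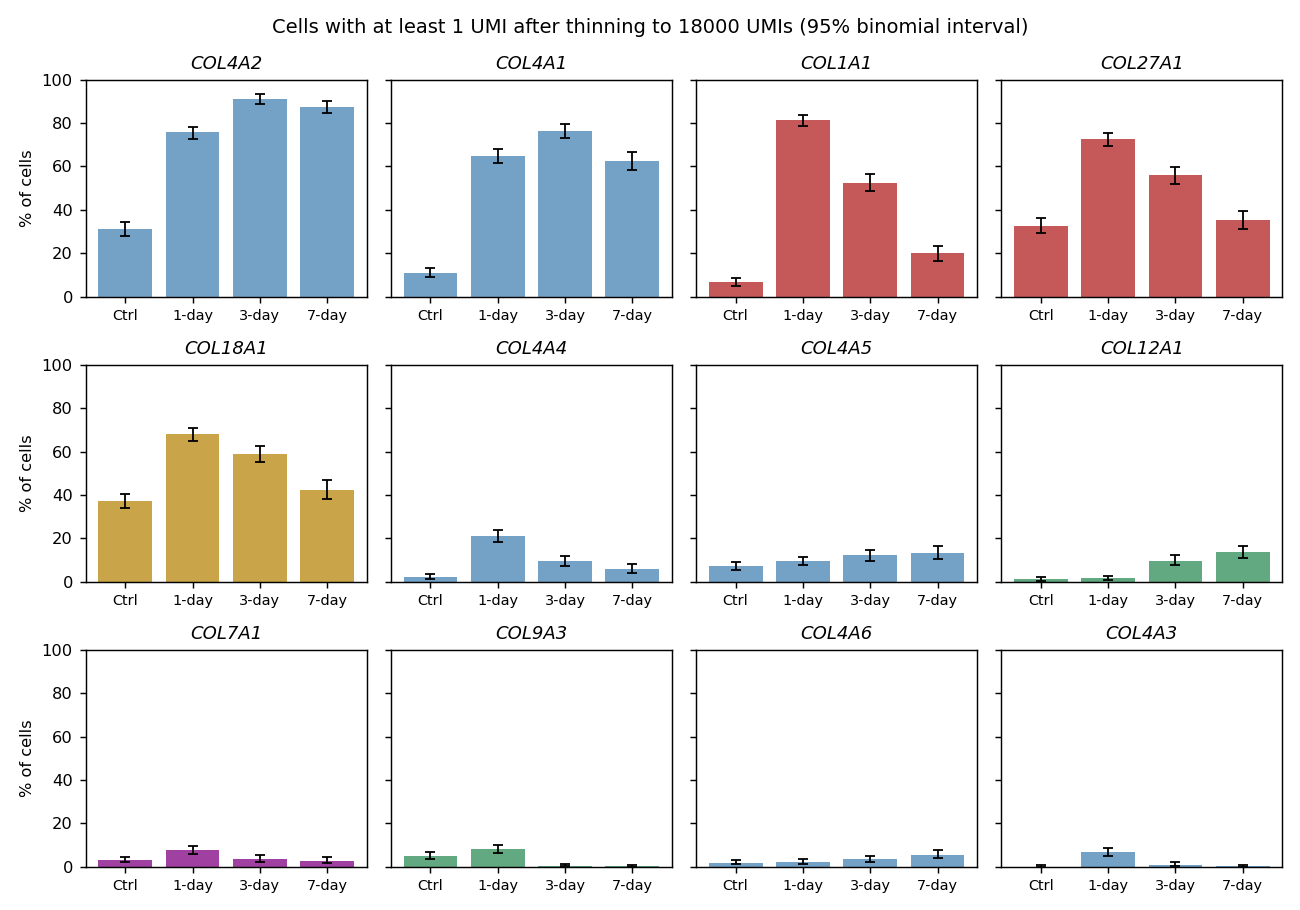
Share of cells with at least 1 UMI (vertical axis, percent) after thinning to 18000 UMIs, for the 12 members of highest summed level, with exact binomial 95% intervals. The *COL1A1* bar is 81.3% at 1-day and 19.9% at 7-day, while *COL4A2* stays at or above 75.7% in the 3 treated libraries.

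Cells of 1 library were uneven for some members. The variance of thinned *COL4A1* UMIs over their mean was 1.17, 3.22, 2.03 and 1.67 from Ctrl to 7-day. At 1-day the lower quartile of cells had 0 *COL4A1* UMIs and the 95th percentile 8, against 1 and 6 at 3-day, where the mean was close (2.20 and 2.07 UMIs). For *COL1A1* the ratio was highest at 3-day, at 3.06, against 2.42 at 1-day. At 3-day the median cell had 1 UMI, the top cell 15, and the 10 highest cells held 15.7% of the unthinned *COL1A1* UMIs. *COL18A1* stayed between 1.11 and 1.35 in all 4 libraries, and a value near 1 is that of Poisson counting.

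*COL4A1* and *COL4A2* varied together over the cells most clearly at 1-day. There, 585 of 900 thinned cells had a *COL4A1* UMI, and they held a mean of 3.35 *COL4A2* UMIs against 0.844 in the other cells. In Ctrl the means were 0.828 and 0.369, at 3-day 3.64 and 2.08, and at 7-day 2.74 and 1.91. Over cells of 1 library at equal depth, Pearson's r of the log-transformed UMIs was 0.65 at 1-day (900 cells), 0.19 in Ctrl (844), 0.39 at 3-day (677) and 0.26 at 7-day (549), with Spearman's rho of 0.65, 0.16, 0.39 and 0.25. The value was lowest in Ctrl, where the UMIs of both genes were fewest. At 1-day and 3-day the thinned means were 2.20 and 2.07 UMIs for *COL4A1* and 2.47 and 3.27 for *COL4A2*, so the lower value at 3-day did not go with fewer UMIs of both genes. The part of UMI number in these values was not tested, and they describe cells of 1 library each. *COL1A1* and *COL4A1* had an r of 0.03, 0.08, 0.17 and 0.03 from Ctrl to 7-day, and *COL4A2* and *COL27A1* one of 0.06, 0.27, 0.15 and 0.10. Values of this size, those of *COL4A1* and *COL4A2* in Ctrl and at 7-day among them, are too weak in sparse counts to be read as a relation or as the lack of one.

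Genes that make, bind or break down collagen were taken from lists, and those with at least 50 UMIs were compared as the members were. *P3H3*, *ITGA11*, *LUM* and *MMP1* reached 50 UMIs only with the library where each was highest, so their calls are not independent of that minimum. Of all genes, 11.0%, 11.8% and 13.8% were at least 2-fold higher than Ctrl after 1, 3 and 7 days, and 11.7%, 10.3% and 9.47% lower, and the counts of each list stand against these shares. The 13 compared genes for the hydroxylation or glycosylation of collagen chains were those of enzymes and their partners. Of these, 2, 3 and 4 were at least 2-fold higher than Ctrl after 1, 3 and 7 days, and none was lower. The 1-day count thus lay near the share of all genes. *P4HA2*, a prolyl 4-hydroxylase subunit needed for a stable helix, was at 5.60 CPM in Ctrl and 21.5, 21.1 and 21.9 in the treated libraries. *PLOD2*, a lysyl hydroxylase of the chain ends, had 359, 686, 726 and 1240 UMIs, the last at 48.9 CPM, and *P3H2*, a prolyl 3-hydroxylase known to act on type IV collagen, at 1.13, 4.10, 8.25 and 11.7. *P3H3* had 4, 6, 14 and 32 UMIs. *P4HA2* was thus level from 1-day on, while *PLOD2* and *P3H2* were highest at 7-day, when the summed collagen level was at its lowest among the treated libraries.

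Of the 9 compared chaperones and export factors, 1 was higher at 1-day, near the 11.0% of all genes, 2 at 3-day and 3 at 7-day (11.8% and 13.8%). *SEC24D*, a coat protein of the vesicles that export procollagen, was at 4.80, 11.1, 8.87 and 11.3 CPM, *FKBP10* at 3.80, 3.37, 8.43 and 11.2, and *FKBP14* at 4.90, 8.25, 14.3 and 14.5. Both FKBP proteins are prolyl isomerases of the endoplasmic reticulum. *SERPINH1*, the collagen chaperone HSP47, was at 2.90, 4.04, 4.42 and 4.25 CPM, short of 2-fold.

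Of 3 compared genes of propeptide cleavage, 0, 1 and 2 were higher at 1, 3 and 7 days (11.0%, 11.8% and 13.8% of all genes), too few genes to set against those shares. *BMP1*, the procollagen C-proteinase, was at 10.8, 20.2, 22.0 and 16.1 CPM, and its enhancers *PCOLCE* and *PCOLCE2* were at 2.53, 4.49, 4.70 and 8.47 and at 4.67, 2.61, 6.63 and 13.3. *ADAMTS2* and *ADAMTS14*, which remove the propeptide at the other end, had no UMI. Of the lysyl oxidases, which cross-link collagen, only *LOXL1* and *LOXL4* reached 50 UMIs. *LOXL4* was at 11.2, 68.9, 57.8 and 32.9 CPM, a log2 ratio of 2.62 (2.45 to 2.79), 2.36 (2.20 to 2.54) and 1.55 (1.37 to 1.74) to Ctrl, highest in the same library as the summed collagens. *LOXL1* was lower at 1-day and 3-day, at 6.87, 2.79, 3.36 and 4.92 CPM, and *LOX* had at most 2 UMIs.

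Of 6 compared receptors, 4 were higher at 1-day (11.0% of all genes), 3 at 3-day (11.8%) and 3 at 7-day (13.8%). *ITGA2* and *ITGB1*, the integrin pair that binds collagen on epithelial cells, were at 36.7, 219, 217 and 284 CPM and at 320.4, 817, 1124 and 1103. *ITGA11*, a collagen integrin of fibroblasts, had 3, 33, 42 and 3 UMIs. *ITGA1* was at 2.63, 3.00, 3.11 and 6.66 CPM, and *MRC2*, an endocytic collagen receptor, at 1.13, 2.85, 1.37 and 1.34. The single compared proteoglycan of fibrils, *LUM*, had 33, 20, 16 and 2 UMIs and was lower at 3-day and 7-day, but 14 of the 33 Ctrl UMIs came from 1 cell.

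Of 5 compared proteases of collagen, 3 were higher and 1 lower at 1-day (11.0% and 11.7% of all genes), 4 were higher at 3-day (11.8%) and all 5 at 7-day (13.8%). *MMP2*, a gelatinase that also cleaves type IV collagen, had no UMI in Ctrl and was at 7.80, 72.1 and 95.9 CPM afterwards. With Ctrl set to 3 counts these levels were 78.0-fold, 721-fold and 958-fold higher, and the log2 intervals began at 5.98, 9.19 and 9.61. *MMP9*, the other gelatinase, was at 2.10, 4.19, 19.1 and 81.2 CPM, and *MMP14*, a membrane protease that activates the *MMP2* product, at 20.7, 50.3, 79.5 and 112. *MMP1*, an interstitial collagenase, had 13, 0, 14 and 250 UMIs, of which 1 cell held 9 in Ctrl and 97 at 7-day, where 10 cells held 92.4%. Its calls as lower at 1-day and higher at 7-day thus rest on few cells. *CTSK* was at 0.400, 0.941, 1.09 and 1.73 CPM. All 5 proteases were highest at 7-day, *MMP1* through few cells. *COL1A1* and *COL27A1* were lower in that library than at 1-day and 3-day, while *COL12A1* and *COL4A6* were highest in it. Over thinned cells, Pearson's r of *COL1A1* and *MMP2* was -0.02, -0.10 and -0.05 at 1, 3 and 7 days. Such values are too weak in sparse counts to be read either way. A link between these RNA levels was not tested.

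Of 3 compared partners of matrix assembly, 2, 3 and 3 were higher at 1, 3 and 7 days (11.0%, 11.8% and 13.8% of all genes). Fibronectin (*FN1*) was at 48.1, 81.1, 256 and 232 CPM. *TGFBI*, a matrix protein named for its response to TGF-β, was at 14.5, 476, 471 and 301 CPM, and tenascin C (*TNC*) at 2.17, 11.2, 54.4 and 72.9. *SPARC*, a collagen-binding glycoprotein, had 1, 10, 2 and 11 UMIs, and *POSTN* was found at 3-day alone, with 6.

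**Figure D5:**
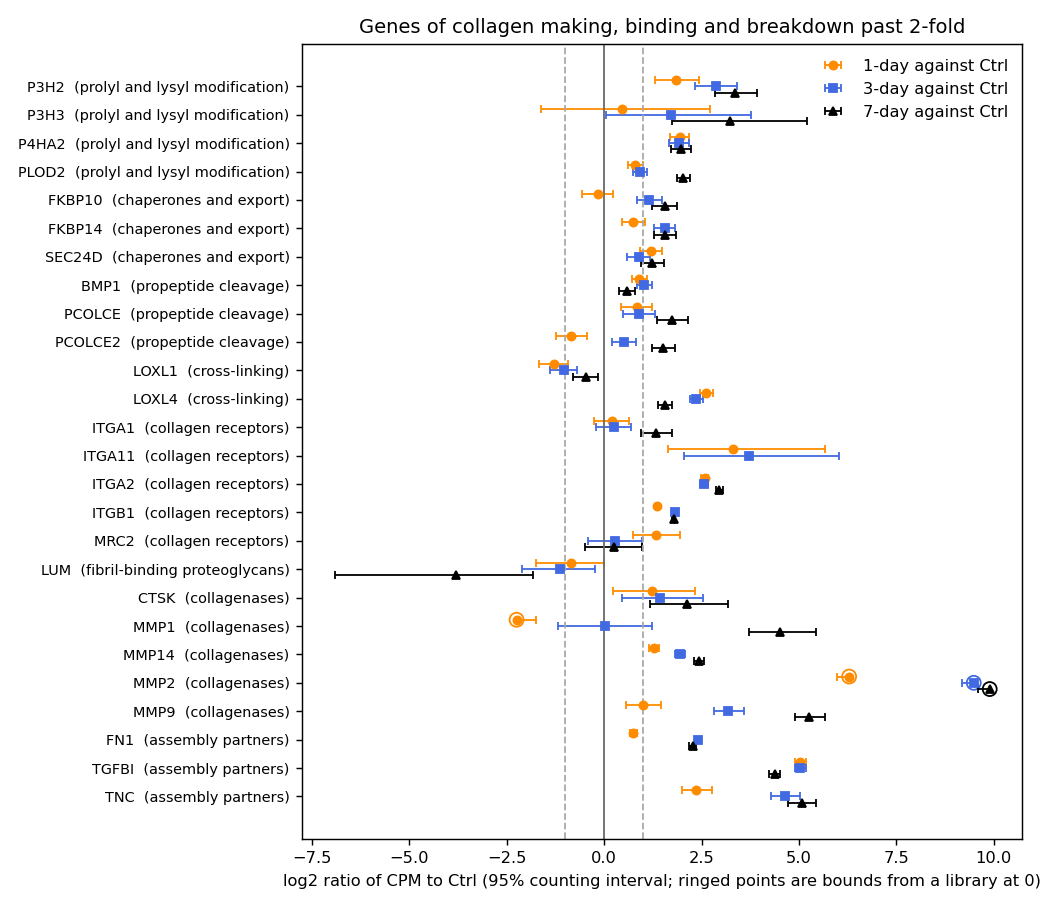
log2 ratio of CPM to Ctrl (horizontal axis, 95% counting intervals) for the genes of collagen making, binding and breakdown that passed 2-fold at 1-day (circles), 3-day (squares) or 7-day (triangles), ordered by list. Ringed points, called bounds on the axis, set a library at 0 to 3 counts, and a comparison with at most 3 UMIs in both libraries has no point. *MMP2* lies farthest to the right with a ringed point at 9.90 at 7-day, and *LOXL1* and *LUM* lie to the left of 0.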

How the data were processed

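OVCA420 cells were profiled with the 10x Genomics 3′ kit. The submitters' processing notes name Cell Ranger 2.0.1 and GRCh38, and the authors deposited UMI counts per gene and cell without normalization. The count tables at hand stop partway through the barcode lists, so the first 3170 of 10710 barcodes were read. Cells with more than 200 genes and at most 20% mitochondrial UMIs were retained (3144 cells). Scrublet (scanpy 1.11.5) marked 40 cells (1.27%), which were retained. For each library, UMIs of the retained cells were summed and scaled to CPM, with exact Poisson intervals, and ratios and shares of cells have exact conditional and binomial intervals at 95%. For shares at equal depth, cells were thinned to 18000 UMIs. Phases used the lists of Seurat 5.3.0, and positions are those of GENCODE release 44. With 1 library per time point no test was made.

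Every member is named. Values per library are given for members with at least 50 UMIs, and intervals for the 12 of highest summed CPM. The members and gene lists were chosen with earlier results of these data known. Genes of the pathway are named where they passed 2-fold or define a list. Alternatives were tried for the mitochondrial limit, doublets, scaling, means over cells, thinning, G1 cells, 2 equal parts of the cells, and the minimum and fold. Leaving out the 10 cells with the most collagen UMIs was added after the data had been seen. Depth per library stands in the opening of the results, and unread cells were not analysed here.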

Additional observations from a re-analysis of the deposited data

Results flagged for a closer look

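*COL9A3* differed from Ctrl in opposite directions over time. Its log2 ratio to Ctrl was 0.63 at 1-day, -4.49 at 3-day and -4.89 at 7-day, and it was flagged because the 1-day library lies on the other side of Ctrl from the 3-day and 7-day libraries. The 3 ratios share the Ctrl library, there is 1 library per time point, so this contrast was not tested.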

How the results depend on the processing

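With 1 library per time point, differences between libraries that are not due to TGF-β1 cannot be told apart from its effect, and no replicate could be left out. No paired analysis was possible because each time point has 1 library. Depth limits the members under 50 UMIs, whose intervals span several-fold, and only part of each library was read. The number of expressed members was 25 under both other mitochondrial limits, with doublets left out and after thinning, and 22 with more than 10 UMIs required. The log2 ratio of the summed level to Ctrl, 2.58, 2.28 and 1.56 at 1, 3 and 7 days, stayed above 0 in every alternative. It left its counting interval with median-of-ratios size factors (2.65 at 1-day and 1.49 at 7-day), as a mean over cells (1.62 at 7-day), in G1 cells (2.39 at 3-day and 1.68 at 7-day) and in the first and second of 2 equal parts of the cells (2.21 and 2.36 at 3-day).

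Of 130 alternative counts of members past the fold, 105 stayed within 1.5 times the reported count and 25 did not. At 1.5-fold, 14 members were higher at 1-day and 2 lower at 3-day, and from 3-day to 7-day 3 were higher and 7 lower. With every gene that had a UMI, 16 were higher and 2 lower at 3-day, 15 higher and 2 lower at 7-day, 4 higher from 1-day to 3-day, and 1 higher and 5 lower from 3-day to 7-day. In G1 cells 1 was lower at 1-day, 2 at 3-day and 3 at 7-day, and 1 was higher from 3-day to 7-day. In thinned cells 1 was lower at 1-day, 2 were higher from 1-day to 3-day and 1 from 3-day to 7-day. In the first part of the cells 2 were higher from 1-day to 3-day and 1 from 3-day to 7-day, and in the second part 2 were lower at 3-day and 2 higher from 3-day to 7-day. From 3-day to 7-day 1 was higher with doublets left out, as a mean over cells, and without the 10 cells of most collagen UMIs. The parts of the cells and the thinned and G1 cells held fewer UMIs, and 1.5-fold and every gene with a UMI are wider criteria. The cause of the moved counts was not tested. Of 800 alternative log2 ratios of single members, 730 stayed within the counting interval and 70 left it. Where the interval excluded 0, 1 of 530 turned sign, *COL4A1* at 3-day against 1-day, 0.18 in G1 cells. Where it held 0, 36 of 270 turned sign, and 6 of these left the interval, 4 of them in G1 cells, where *COL16A1* at 1-day was -0.84 and *COL12A1* at 1-day -0.54 against Ctrl.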
